A study of Rattus norvegicus with 24 samples.

Results

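The collagens, laminins and integrins are the structural chains of the extracellular matrix and the receptors that hold cells to it. They were taken by gene symbol, as every probe set of the rat array with a single symbol that names a collagen chain, a laminin chain or an integrin subunit, and the probe set with the highest mean over all 24 arrays stands for a gene that has several. This gave 77 genes of the 14217 with a single-symbol probe set: 41 collagens, 10 laminins, 22 integrins and 4 genes that only share the letters of an integrin name (Itgb1bp1, Itgb1bp2, Itgb3bp and Itgbl1), which are counted here and described apart. The rule uses the symbol and the overall brightness of a probe set, and no comparison between groups.

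Testis RNA of Fisher 344 rats, an inbred strain, was measured on Affymetrix Rat230_2 arrays. The animals had dibutyl phthalate (DBP), used to soften plastics and known to harm the developing male reproductive tract, by gavage in corn oil, or the oil alone. Pregnant dams had oil or 50 mg/kg DBP each day from gestational day 12 to 20. Fetal testes of gestational day 20 (GD20) make up 2 groups: "GD20 oil" (dams 2, 3, 4 and 5, the array of dam 2 labelled as a pool) and "GD20 DBP" (dams 16, 18, 19 and 21, taken 6 hours after the last dose). The other 4 groups are testes of male offspring at postnatal day 35 (PND35), taken 6 hours after 1 further gavage of oil or of 500 mg/kg DBP, with names that give the fetal exposure first: oil-oil (pups 104, 110, 114 and 120), oil-DBP (pups 105, 111, 115 and 121), DBP-oil (pups 123, 127, 132 and 134) and DBP-DBP (pups 124, 128, 133 and 135). Each group holds 4 arrays, and each array is from a different dam or pup. Litters are not named for the pups, and the time since the last gavage is not named for the GD20 oil group.

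A collagen is built from 3 chains, and the collagens differ in what they form: fibrils in the interstitium (types I, III and V), the sheet of the basement membrane (type IV), or links between other matrix parts. A laminin joins 1 alpha, 1 beta and 1 gamma chain, and laminins with type IV collagen make up the basement membrane on which Sertoli cells, spermatogonia and peritubular myoid cells of the seminiferous tubule rest. Integrins are pairs of an alpha and a beta subunit that span the cell membrane and bind collagen, laminin, or matrix proteins that carry the RGD motif. The beta chain Itgb1 has the most alpha partners, among them Itga1, Itga5, Itga6 and Itgav. Another set of integrins, with Itgb2 or Itgb7, is found on leukocytes.

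Values are the deposited linear intensities, on which each array had been scaled to the same trimmed mean of about 500. Log2 fold changes are on the scale log2(intensity + 16), which understates the change of dim genes, and are given with the standard error (SE) of a limma fit over all probe sets. A gene is said to have risen or fallen where limma's Benjamini-Hochberg adjusted p, taken over 31042 probe sets, was under 0.05. Of the 77 genes, 13 had a mean under 100 in all 6 groups, and the files hold no detection calls, so whether a dim gene was above background is unknown. The number of arrays, 4 a group, limits the precision. In bulk testis RNA, fewer cells of a type and less RNA per cell cannot be told apart.

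Some arrays stood apart in technical measures. The mean log2 intensity of the 27 poly-A spike-in controls was 6.23 and 6.33 on the arrays of dams 21 and 19 and 7.74 to 8.33 on the other GD20 arrays. It was 5.75 to 5.98 on the oil-oil and oil-DBP arrays, 6.97 to 7.18 on the DBP-DBP arrays, and split within DBP-oil (5.79 and 5.85 for pups 123 and 127, 7.17 and 7.16 for pups 132 and 134). The group means of the RNA integrity number lay between 8.425 and 8.775. At PND35, RNA of pups 104 and 115 was extracted with Trizol and that of the other 14 pups with a column kit, while Trizol with a micro kit served for every GD20 sample. The array of dam 21 had a summed intensity of 8 spermatid markers of 4160, against 390 to 442 over the GD20 oil arrays. The testis label was borne out in each age: summed Leydig cell markers were 58064 to 61377 on the GD20 oil arrays, and summed spermatocyte markers were 53502 to 60397 on the oil-oil arrays.

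In control testes, most chains of the matrix were lower at PND35 than at GD20. Among the 77 genes, 53 were lower in oil-oil than in GD20 oil and 12 were higher, that is 68.8% and 15.6%, while over all 14217 genes 26.7% were lower and 49.2% higher. In either direction 84.4% of the members and 75.9% of all genes were called. The median log2 fold change was -1.15 over the members and 0.42 over all genes. Without centring each array on its median these medians were -1.81 and -0.24, and 60 members were then lower and 10 higher, against 44.4% and 29.6% of all genes. The log2 fold changes with age given below are from the centred fit, while the intensities and means beside them are as deposited. Centring moved every fold change with age upwards by the same amount. Falls are therefore smaller, and rises larger, than the deposited means give, for bright genes as well as dim ones. RNA extraction differed between the ages, so that age and extraction cannot be told apart.

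Of the 11 fibrillar collagens, which form the interstitial fibrils, 10 were lower at PND35, with a median of -2.47, and 1, Col11a2, was higher (0.75), a call that was lost without centring. Col1a1, a chain of type I collagen, had an intensity of 12739, 15830, 15155 and 16089 on the GD20 oil arrays and 1468, 1458, 819 and 1317 on the oil-oil arrays. Col3a1, the chain of type III collagen, went from 19458, 22891, 21943 and 24008 to 3376, 3259, 2455 and 3150. For both genes every PND35 array was below every GD20 array, with log2 fold changes of -2.92 ± 0.15 for Col1a1 and -2.20 ± 0.10 for Col3a1 (SE, limma adjusted p = 6.23e-10 and 9.92e-11). Col14a1, a collagen that sits on the surface of fibrils, fell from a mean of 1580 to 52.3 (-3.90 ± 0.14), the largest fall of all members here. With a pseudocount of 64 it was -3.32, and Col5a2 and Col6a3 then fell more (-3.45 and -3.39). Col5a2 and Col6a3, of the fibril-forming type V and the beaded type VI, had log2 fold changes of -3.40 and -3.42.

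The basement membrane chains fell unequally. Col4a1, which with Col4a2 forms the common type IV collagen, had intensities of 7148, 7925, 7627 and 7553 at GD20 and 609, 630, 401 and 516 at PND35, a log2 fold change of -3.14 ± 0.12 (limma adjusted p = 1.37e-11). Col4a2 fell by 2.78 on the log2 scale. Col4a5, a type IV chain of more specialised basement membranes, did not pass the test after centring (-0.14, 95% interval -0.28 to 0.01), though as deposited its arrays lay at 2584 to 2875 at GD20 and at 1511 to 1653 at PND35 with no overlap. Col18a1, whose C-terminal fragment is endostatin, fell by 0.53 on the log2 scale. Of the 10 laminin chains, 8 were lower and 1 higher. Lamb1, the beta chain of embryonic laminins, fell by 3.11 on the log2 scale, from a mean of 6265 to 451, and Lama4, a chain of vessel and muscle basement membranes, fell by 2.38. Lamb3, known from epithelial laminin, was higher (1.11 ± 0.14, from a mean of 162 to 228), and Lamc3 did not pass the test (-0.15, 95% interval -0.39 to 0.08) but fell in the fit without centring (-0.81).

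Of the 22 integrins, 15 were lower at PND35 and 2 were higher. Itga6, the laminin-binding alpha chain of spermatogonial stem cells and epithelia, had intensities of 3332, 3397, 3525 and 3356 at GD20 and 304, 264, 304 and 283 at PND35. That was a log2 fold change of -2.83 ± 0.07, with the smallest adjusted p among the members (1.94e-13). After centring, Itgb1 fell by 1.68 on the log2 scale, while its deposited mean went from 8865 to 1750. Itgb3, a partner of Itgav, fell by 2.70. Both integrins that were higher are leukocyte integrins by class, Itgae (1.91 ± 0.08) and Itgb7 (0.62 ± 0.25). The call for Itgb7 had an adjusted p of 0.0421, its group means were 63.9 and 64.3, and it turned to -0.039 without centring.

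The members that rose were otherwise mostly minor collagens. Col23a1, a transmembrane collagen, rose from a mean of 99.2 to 756 (log2 fold change 3.39 ± 0.14), and Col20a1 from 4.27 to 90.2 (3.05 ± 0.23). Col22a1 and Col16a1, both fibril-associated, rose by 1.51 and 1.38. Among the 4 genes that only share the integrin letters, 3 rose: Itgbl1 (3.65), Itgb3bp, a centromere protein (2.36), and Itgb1bp1, a cytoplasmic protein that binds the tail of Itgb1 (1.86). Over the same arrays 6 of 6 measured spermatocyte markers and 8 of 8 spermatid markers rose (medians 4.55 and 8.32), while 8 of 9 endothelial, 5 of 6 stromal fibroblast and 8 of 10 peritubular myoid markers fell (medians -1.25, -2.14 and -0.76). Of 19 other basement membrane and matrix genes, 18 fell and 0 rose (median -2.16). This list overlaps with the stromal fibroblast markers, as Dcn, Lum and Fbln1, which fell, are in both. The stromal marker Mfap5 rose (4.45). The part of cell composition in these changes was not tested.

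Other probe sets of the members called with age did not all move alike. Of 25 called members with 33 other probe sets, 22 of those had the same sign, 20 passed the limma threshold in that direction and 3 passed it in the other direction. These 3 belong to Col11a1 (0.83), Col2a1 (0.70) and Itgb1bp1 (-1.51), and all were dim in at least 1 of the ages, with a mean of 7.90, 38.5 and 20.5 at PND35. The direction for these 3 genes is therefore that of the brightest probe set only.

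**Figure D1:**
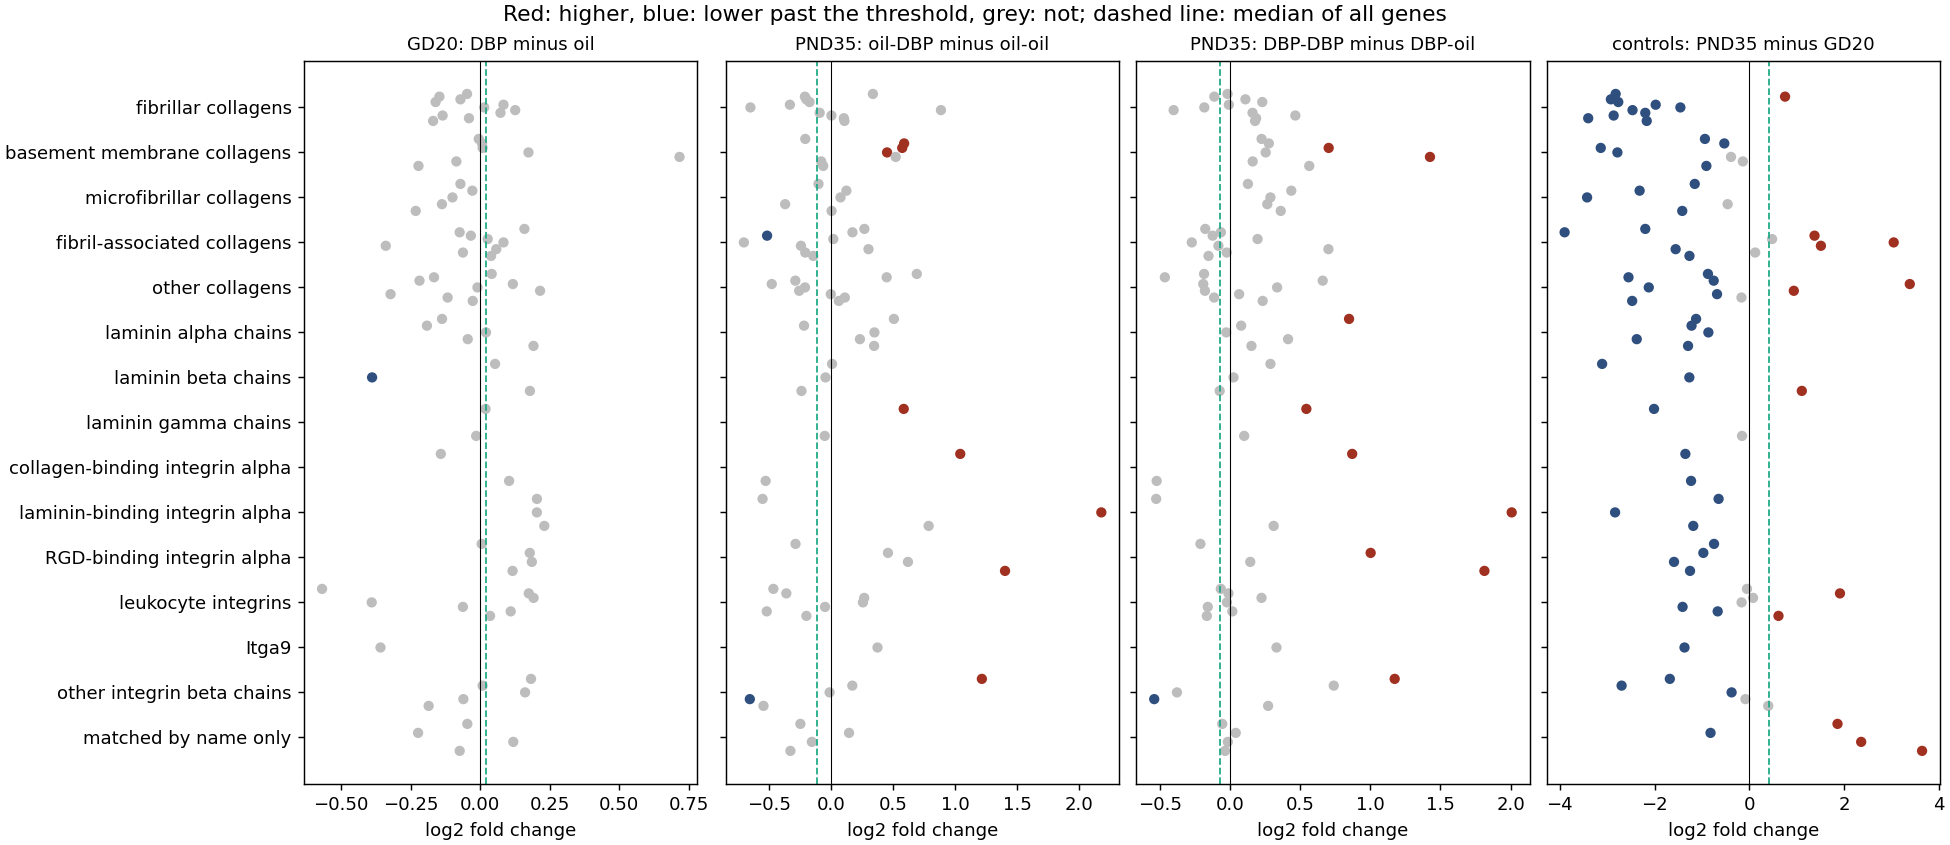
Log2 fold change (horizontal axis) of the 77 genes, grouped by role on the vertical axis, in the GD20 comparison, both acute comparisons at PND35 and the control comparison of ages; each point is 1 gene, red or blue where it passed the limma threshold, and the dashed line is the median of all 14217 genes. The acute panels show red points among basement membrane collagens, laminins and integrin alpha chains, and for the beta chain Itgb1. None lies among the 11 fibrillar collagens, while in the panel of ages 10 of the 11 fibrillar collagens are blue.

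Acute DBP was first compared in animals whose dams had oil (oil-DBP against oil-oil). Within 6 hours the integrin subunits Itga6, Itgav, Itgb1 and Itga1 rose between 2.39 and 4.98 times in mean intensity, and Lamc1, Col4a1, Col4a2 and Col18a1 of the basement membrane rose by 1.45 to 1.60 times. Itgb5, another partner of Itgav, and Col16a1 fell. That is 8 members higher (10.4%) and 2 lower (2.6%), beside 6.18% of all genes higher and 5.99% lower. Without centring, 9 members were higher and 1 lower, beside 7.24% and 3.52% of all genes. In either direction that is 13% of the members and 12.2% of all genes, so the members' share is near the background. The median was -0.00 over the members and -0.11 over all genes, and 38 members were above 0 and 39 below. Of the members lower, 1 was left without any of pups 104, 110, 111, 115 or 121, while 4 were called without pup 120 and 6 without pup 105.

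Itga6 showed the largest change. Its intensity was 304, 264, 304 and 283 on the oil-oil arrays and 1116, 1436, 1514 and 1690 on the oil-DBP arrays, with a log2 fold change of 2.18 ± 0.16 (limma adjusted p = 4.86e-09). Every treated array was above every control array, and none came up to the GD20 oil arrays, which lay at 3332 or above. Itgav, the alpha chain of the vitronectin receptors, went from 195, 185, 164 and 184 to 573, 414, 474 and 700 (1.40 ± 0.17, adjusted p = 5.81e-06). Itgb1, the beta chain that pairs with both, went from 1542, 1806, 1755 and 1898 to 3661, 4478, 3843 and 5228 (1.22 ± 0.11, adjusted p = 1.49e-07). For all 3 genes the groups did not overlap. Itga1, a collagen receptor, went from 117, 134, 139 and 118 to 230, 467, 231 and 286 (1.04 ± 0.19, adjusted p = 0.000797), with pup 111 well above the other treated pups.

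Other alpha chains did not pass the test. Itga5, the fibronectin receptor chain, was at 0.46 (95% interval -0.04 to 0.96), Itga8, the nephronectin receptor chain, at 0.62 (0.07 to 1.17, adjusted p = 0.15), and Itga3, like Itga6 a laminin receptor, at -0.55. Itga7, the third laminin-binding chain, was at 0.79 with an interval of -0.00 to 1.58. Itgb5 had intensities of 731, 614, 660 and 732 in oil-oil and 452, 363, 517 and 478 in oil-DBP. All treated arrays were below all control arrays, and the log2 fold change was -0.65 ± 0.13 (adjusted p = 0.0022). The other beta chains Itgb3, Itgb4 and Itgb6 did not pass (0.17, -0.01 and -0.54).

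Among 10 laminin chains 1 rose. Lamc1, the gamma chain shared by most laminins, had intensities of 467, 519, 388 and 598 in oil-oil and 696, 962, 644 and 832 in oil-DBP (log2 fold change 0.59 ± 0.14, limma adjusted p = 0.00811), with no overlap. Lama1, the alpha chain of laminin-111, had no overlap either, at 284, 206, 227 and 322 against 398, 374, 370 and 414, but missed the threshold (0.51 ± 0.16, adjusted p = 0.0518). It passed in 5 of the alternative settings. The beta chains Lamb1 and Lamb2 were at 0.01 and -0.04, with 95% intervals of -0.33 to 0.35 and -0.38 to 0.29.

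Of the 7 basement membrane collagens measured, 3 rose and 0 fell (median 0.45). Col4a1 had intensities of 609, 630, 401 and 516 in oil-oil and 838, 915, 758 and 842 in oil-DBP, a log2 fold change of 0.57 ± 0.14 (limma adjusted p = 0.0123). Col4a2 had 271, 197, 238 and 267 against 350, 395, 332 and 335 (0.45 ± 0.13, adjusted p = 0.0301), and Col18a1 had 758, 700, 704 and 906 against 954, 1488, 1225 and 1232 (0.59 ± 0.12, adjusted p = 0.00239). The treated arrays lay above the control arrays for all 3. Without pup 114, whose Col4a1 value is the lowest of the controls, the adjusted p for Col4a1 was 0.0509. Col4a2 lost its call without pup 110, 111, 114 or 121 and with the RNA integrity number in the model, with an adjusted p of up to 0.14.

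The interstitial collagens gave no call. Of the 11 fibrillar collagens 0 passed the limma threshold (median -0.09, 1 with an unadjusted p under 0.05), and of the 5 measured type VI chains 0 passed (median 0.01, 0 with such a p). Col1a1 lay at 1648, 926, 1318 and 790 in oil-DBP beside 1468, 1458, 819 and 1317 in oil-oil, so that the groups overlapped, and Col3a1 was at -0.09. Col16a1, a collagen at the edge of fibrils, had 2901, 2875, 2197 and 1945 in oil-oil and 2547, 1499, 1583 and 1687 in oil-DBP. These groups overlapped, and the fall (-0.51 ± 0.15, adjusted p = 0.0395) kept its call in 9 of 20 alternatives. Col2a1, the cartilage collagen, had means of 6.93 and 30.0 and did not pass.

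Col4a1 and Col4a2 are neighbours in the rat genome and are read in opposite directions from starts 77 bases apart, an arrangement known for the type IV collagen genes. Promoter windows are shown for this pair, because both genes rose and share the stretch between their starts, and for Itgb1, Itgav, Itga1 and Lamc1, the other genes with an entry that rose in both acute comparisons. Each window is 300 bases long, from 250 before the start to 50 after it, from RefSeq (GRCr8), written 5' to 3' on the gene's strand. Capitals mark matches on either strand to the GC box (GGGCGG) and the CCAAT box (CCAAT). Col4a1 lies at chr16:84885347-84885646 on the plus strand, Col4a2 at chr16:84885471-84885770 on the minus strand, Itgb1 at chr19:73602027-73602326 on the plus strand, Itgav at chr3:89245132-89245431 on the plus strand, Itga1 at chr2:48545234-48545533 on the minus strand and Lamc1 at chr13:68051937-68052236 on the minus strand.
Col4a1: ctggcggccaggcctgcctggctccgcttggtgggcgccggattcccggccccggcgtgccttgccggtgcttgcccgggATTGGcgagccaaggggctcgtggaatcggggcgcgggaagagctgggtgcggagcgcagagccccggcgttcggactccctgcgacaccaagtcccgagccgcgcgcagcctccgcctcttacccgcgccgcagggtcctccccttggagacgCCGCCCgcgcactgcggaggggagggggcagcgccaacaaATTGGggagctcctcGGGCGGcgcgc
Col4a2: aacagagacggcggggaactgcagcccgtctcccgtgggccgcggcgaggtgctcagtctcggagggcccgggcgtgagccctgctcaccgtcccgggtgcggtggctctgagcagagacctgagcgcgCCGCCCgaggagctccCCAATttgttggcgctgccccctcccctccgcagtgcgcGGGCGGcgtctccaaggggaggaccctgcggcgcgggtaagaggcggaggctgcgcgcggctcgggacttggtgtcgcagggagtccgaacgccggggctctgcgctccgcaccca
Itgb1: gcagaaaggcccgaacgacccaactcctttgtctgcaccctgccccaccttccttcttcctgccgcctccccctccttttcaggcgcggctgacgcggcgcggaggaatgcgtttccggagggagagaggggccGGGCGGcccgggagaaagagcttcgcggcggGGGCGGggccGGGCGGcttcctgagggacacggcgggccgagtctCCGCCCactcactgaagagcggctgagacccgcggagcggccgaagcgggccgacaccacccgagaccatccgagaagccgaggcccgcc
Itgav: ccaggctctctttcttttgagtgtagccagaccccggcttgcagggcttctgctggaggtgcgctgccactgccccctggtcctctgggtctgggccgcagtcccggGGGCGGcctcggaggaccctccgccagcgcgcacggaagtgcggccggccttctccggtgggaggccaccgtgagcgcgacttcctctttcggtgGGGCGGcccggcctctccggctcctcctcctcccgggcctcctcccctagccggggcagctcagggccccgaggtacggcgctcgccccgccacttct
Itga1: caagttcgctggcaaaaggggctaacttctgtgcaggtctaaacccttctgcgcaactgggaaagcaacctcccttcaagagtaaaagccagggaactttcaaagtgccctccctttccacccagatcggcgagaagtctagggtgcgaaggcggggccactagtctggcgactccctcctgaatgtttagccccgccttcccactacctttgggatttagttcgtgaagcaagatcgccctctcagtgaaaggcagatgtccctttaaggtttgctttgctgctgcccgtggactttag
Lamc1: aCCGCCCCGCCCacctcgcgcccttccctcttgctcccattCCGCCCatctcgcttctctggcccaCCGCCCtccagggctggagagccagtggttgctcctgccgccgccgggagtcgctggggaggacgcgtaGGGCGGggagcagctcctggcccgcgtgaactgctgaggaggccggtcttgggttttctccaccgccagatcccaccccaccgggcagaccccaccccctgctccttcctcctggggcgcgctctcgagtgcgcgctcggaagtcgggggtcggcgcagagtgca

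The windows of Col4a1 and Col4a2 overlap by 176 bases, which hold 2 GC box matches, 1 CCAAT box match and 1 match to the kappaB consensus of NF-kB, whose end shares 2 letters with the CCAAT box. Itgb1 holds 4 GC box matches, Itgav 2, Lamc1 5 and Itga1 0, and none of these 4 holds a CCAAT box, a kappaB match, an AP-1 match (TGACTCA or TGAGTCA) or a CArG box of serum response factor. Windows were found for 60 of the 77 genes; Itga6 is named only. GC boxes were in 53.3% of the 60 windows and in 34.9% of all 27457 promoter windows of the same length, and CCAAT boxes in 26.7% and 37.7%. The shares for AP-1 were 5.0% and 4.53%, for kappaB 11.7% and 7.6%, and for CArG 3.33% and 1.64%, with all motifs searched on both strands. A match is a description of the letters and not of a bound factor.

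**Figure D2:**
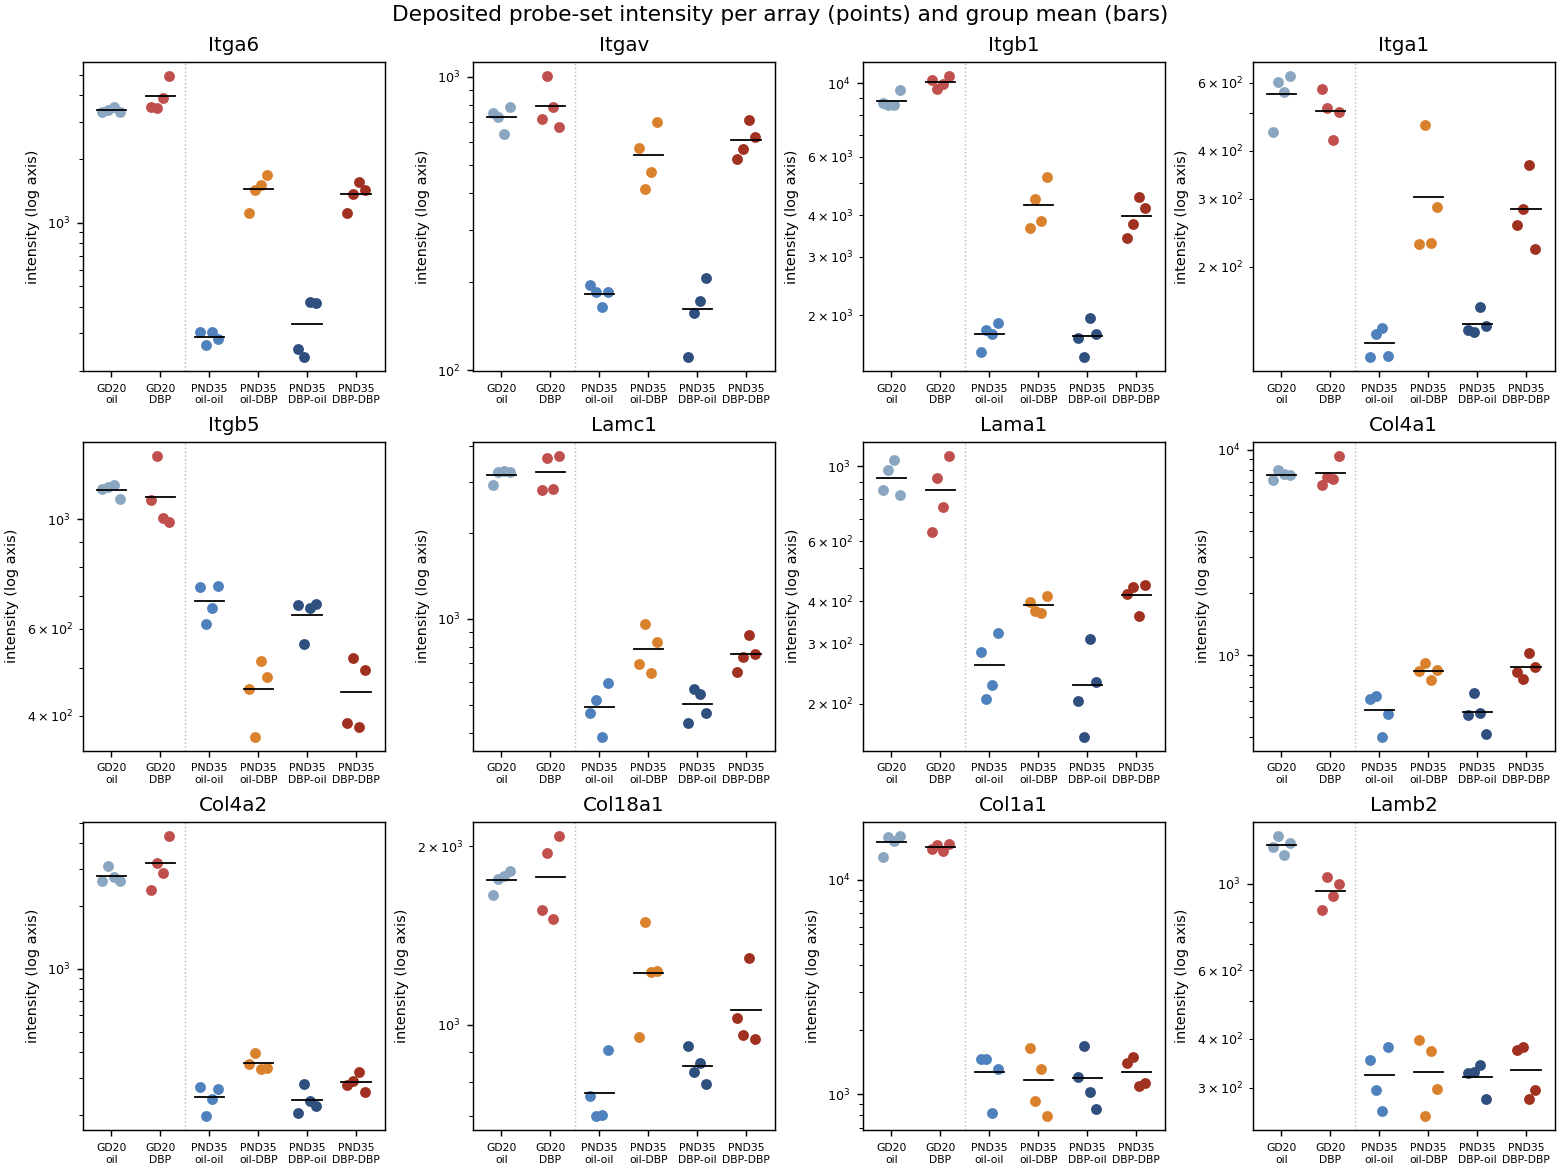
Deposited intensity (vertical axis, log scale) of 12 members on each array, with 4 points and a bar for the mean in each of the 6 groups on the horizontal axis. The 4 oil-DBP and the 4 DBP-DBP arrays lie above all arrays of their oil-treated counterparts for Itga6, Itgav, Itgb1, Itga1, Lamc1, Lama1, Col4a1 and Col18a1 and below them for Itgb5, while Col1a1 overlaps.

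The same dose was compared in animals with fetal DBP (DBP-DBP against DBP-oil). These groups share no array with the former comparison, but 1 fit over all 16 PND35 arrays gave the spread for both. Again Itga6, Itgav, Itgb1, Itga1, Lamc1 and Col4a1 rose and Itgb5 fell, and here Itga5, Lama1 and Col4a4 rose as well. In all 9 members were higher (11.7%) and 1 was lower (1.3%), beside 5.16% of all genes higher and 2.17% lower. In either direction, 13% of the members and 7.33% of all genes were called. The median was 0.11 over the members and -0.07 over all genes. Of the 13 members called in either acute comparison, 7 were called in both, and all 13 had the same sign in both.

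Itga6 had intensities of 255, 232, 422 and 419 on the DBP-oil arrays and 1110, 1371, 1554 and 1424 on the DBP-DBP arrays (log2 fold change 2.01 ± 0.16, limma adjusted p = 1.68e-08). Its 2 higher controls, pups 132 and 134, are the DBP-oil pups with the high spike-in level. Against those alone the log2 fold change was 1.66, and against pups 123 and 127 alone it was 2.35. Itgav went from 111, 156, 173 and 206 to 523, 569, 714 and 622 (1.81 ± 0.17, adjusted p = 1.89e-07), and Itgb1 from 1704, 1496, 1959 and 1748 to 3403, 3757, 4540 and 4202 (1.17 ± 0.11, adjusted p = 2.63e-07). Neither gene's groups overlapped. Itga1 went from 137, 135, 157 and 141 to 256, 282, 368 and 223 (0.87 ± 0.19, adjusted p = 0.00528), again with no overlap.

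Itga5, the fibronectin receptor chain, went from 73.8, 50.1, 92.5 and 47.0 to 129, 111, 188 and 168 (log2 fold change 1.00 ± 0.24, limma adjusted p = 0.0123). Itgb5 went from 671, 560, 661 and 674 down to 387, 524, 379 and 495 (-0.54 ± 0.13, adjusted p = 0.0134). Among the laminins, Lama1 went from 204, 160, 309 and 232 to 420, 439, 362 and 446 (0.85 ± 0.16, adjusted p = 0.00167). Each of these 3 genes had groups that did not overlap. Lamc1 went from 433, 568, 547 and 470 to 653, 733, 876 and 754 (0.55 ± 0.14, adjusted p = 0.0172).

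Of the 7 basement membrane collagens, 2 rose here (median 0.28). Col4a1 went from 511, 653, 524 and 415 to 830, 765, 1026 and 872 (log2 fold change 0.70 ± 0.14, limma adjusted p = 0.0028), with no overlap. Col4a4, a chain of the collagen IV network of kidney and other specialised basement membranes, went from 14.0, 4.24, 2.63 and 10.02 to 71.4, 41.4, 30.6 and 53.2 (1.43 ± 0.40, adjusted p = 0.0414). It is dim throughout and kept its call in 11 of 21 alternatives. Col4a2 and Col18a1 did not pass (0.26 and 0.28, 95% intervals -0.01 to 0.52 and 0.03 to 0.52). The 11 fibrillar and 5 type VI chains again gave 0 limma calls (medians 0.11 and 0.29, 1 of each group with an unadjusted p under 0.05).

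The count rested in part on which DBP-oil arrays entered. With only pups 132 and 134 as controls, which have the same spike-in level as the DBP-DBP arrays, 5 members were higher and 0 lower. Of these, 4 were among the 9 called higher in the main fit. With only pups 123 and 127 it was again 5 and 0, and all 5 were among the 9. Itga6, Itgav and Itgb1 passed both ways. Col4a1 passed with the first pair (0.89) and not with the second (0.52, adjusted p = 0.0777), while Itga1 and Lama1 passed with the second pair and not with the first (adjusted p = 0.0699 and 0.0708). Each of these fits compares 4 arrays with 2. The call for Itgb5 was lost in both and also without pup 123, 124 or 133, which left 0 members lower. Lamc1 lost its call in both (limma adjusted p = 0.0955 and 0.106), and also without pup 123, 133 or 134 and without the intensity trend. Itga5 lost its call in both (adjusted p = 0.0959 and 0.0509), and also without pup 133, 134 or 135.

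**Figure D3:**
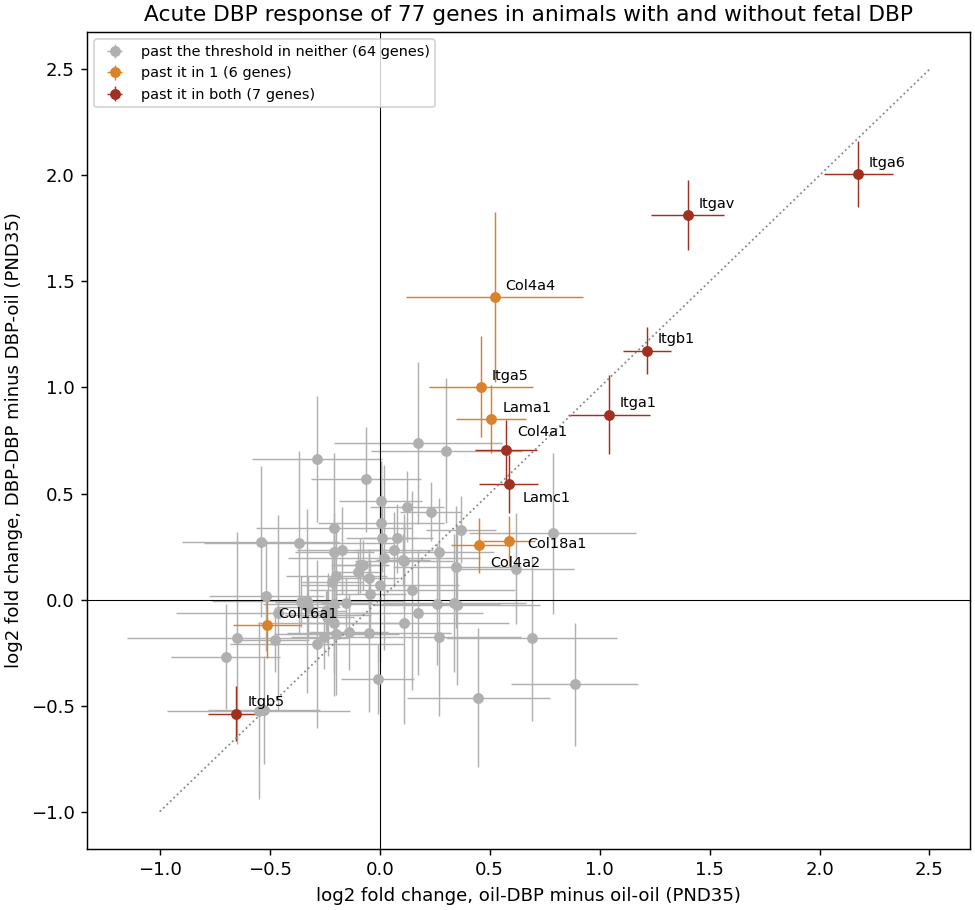
Log2 fold change of the 77 genes for acute DBP after fetal oil (horizontal axis) and after fetal DBP (vertical axis), with SE bars; the dotted line marks equal change. The 7 genes called in both comparisons are Itga6, Itgav, Itgb1, Itga1, Col4a1 and Lamc1 at the upper right and Itgb5 at the lower left, 6 genes were called in 1 of them and 64 in neither.

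Whether fetal DBP altered the acute response was tested by the interaction of both exposures. No member passed it (limma, 0 of 77, with or without the intensity trend, beside 0% of all genes), and 2 had an unadjusted p under 0.05, Col2a1 (-1.29) and Col17a1 (0.95), both with group means at PND35 of 30.0 or less. For Itga6 the difference between the acute responses was -0.17 (95% interval -0.63 to 0.29), for Itgb1 -0.04 (-0.36 to 0.28), for Lamc1 -0.04 (-0.44 to 0.36) and for Col4a1 0.13 (-0.28 to 0.54). Itgav and Col18a1 had estimates further from 0, in opposite directions, at 0.41 (-0.08 to 0.90) and -0.31 (-0.66 to 0.04). Differences of up to these bounds remain possible, so the acute responses are not shown to be alike.

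Fetal DBP by itself left no member past the threshold at PND35. Before postnatal oil (DBP-oil against oil-oil) 0 of 77 members passed limma's threshold, beside 0% of all genes, with 2 members at an unadjusted p under 0.05, the dim Col2a1 and Col20a1. Before postnatal DBP (DBP-DBP against oil-DBP) 0 passed, again beside 0%, and 4 had such a p, led by Itgbl1 (0.44, adjusted p = 0.347). Between DBP-oil and oil-oil the 95% interval was -0.20 to 0.45 for Itga6, -0.27 to 0.19 for Itgb1, -0.26 to 0.31 for Lamc1 and -0.34 to 0.24 for Col4a1. Between DBP-DBP and oil-DBP the spike-in level differed on every array, so that fetal exposure and spike-in level cannot be told apart there. These comparisons share arrays with the acute ones.

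**Figure D4:**
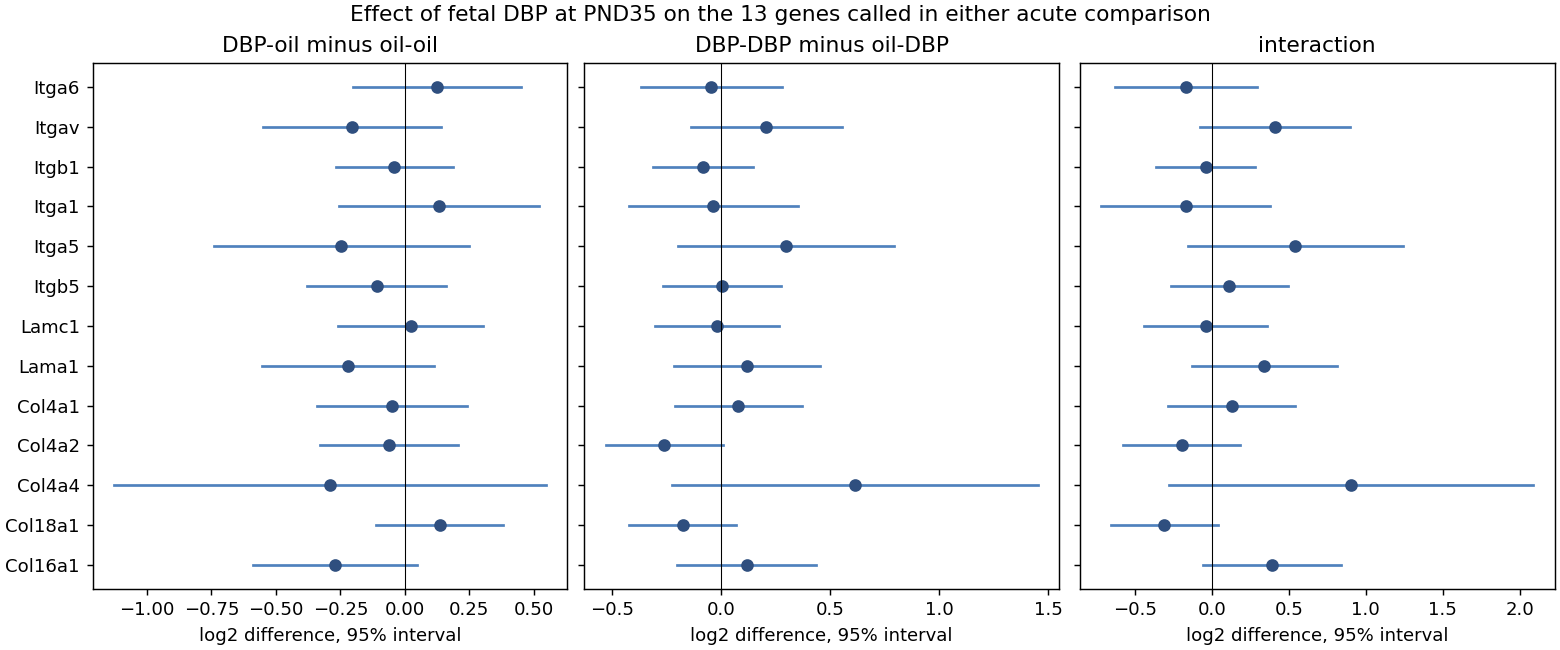
Log2 difference (horizontal axes) with its 95% interval for the 13 genes called in either acute comparison (vertical axis), in both comparisons of fetal DBP with fetal oil at PND35 and in the interaction. Every interval reaches across 0, and that of the dim Col4a4 is the widest in each panel.

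In the fetal testis itself, daily DBP changed 1 member. Lamb2, the beta chain of laminins at synapses, kidney filters and muscle, had intensities of 1243, 1330, 1185 and 1271 in GD20 oil and 859, 1043, 934 and 999 in GD20 DBP. The groups did not overlap and the log2 fold change was -0.39 ± 0.07 (limma adjusted p = 0.0483). That is 1.3% of the members, beside 0.556% of all genes, and a median of -0.01 over the members and 0.02 over all genes. The call was lost in 13 of 19 alternatives (adjusted p of 0.029 to 0.238 over all of them), among them the fits without dams 19 and 21 (-0.40, adjusted p = 0.0807), while its value stayed between -0.43 and -0.34. Leaving out any array but that of DBP dam 18 also ended it.

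The members that responded to acute DBP at PND35 did not pass at GD20, where the dose was lower and repeated. Itga6 was at 0.20 (95% interval -0.01 to 0.42), and Itgb1 at 0.18 (0.03 to 0.34), with 10237, 9586, 9922 and 10505 in GD20 DBP above 8733, 8603, 8603 and 9523 in GD20 oil. Itga9, a receptor chain for tenascin, was next after Lamb2 by p (-0.36 ± 0.11, adjusted p = 0.238). Dose, number of doses and age all differ between the GD20 and the PND35 comparisons, and no test was made between them.

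Genes that act with the members were counted in lists. Like the members, the lists were chosen with earlier results of these data known, so their counts are no independent check. Over all genes, 6.18% were higher and 5.99% lower after fetal oil (median -0.11). After fetal DBP, 5.16% were higher and 2.17% lower (median -0.07). A count of 1 gene in a list here is near these shares. Of 21 focal adhesion genes, which tie integrins to actin, 7 rose and 1 fell after acute DBP with fetal oil, and 8 rose and 0 fell with fetal DBP (medians 0.32 and 0.29). Actn1, an actin crosslinker, rose by 1.63 and 1.53, Vcl, vinculin, by 1.20 and 1.14, and Fermt2, which activates integrins, by 0.88 and 0.98. Pxn, paxillin, fell after fetal oil (-0.49). Of 11 other matrix receptors 3 rose in each comparison, Sdc4 by 2.02 and 1.91, Sdc1 by 1.01 and 1.08 and Ddr1, a collagen-binding kinase, by 0.65 and 0.36. Of 10 further integrin ligands 3 rose in each: Vcam1 (2.73 and 2.99), Icam1 (2.61 and 3.20) and Spp1, osteopontin (1.96 and 1.49).

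Of 19 genes of collagen processing, Lox, the crosslinking oxidase, rose by 1.42 and 1.59 and P4ha2, a prolyl hydroxylase subunit, by 0.93 and 0.78, and 0 fell in either comparison. Of 19 basement membrane and matrix partners 1 rose after fetal oil, Fn1, fibronectin (0.82), and 0 passed limma's threshold after fetal DBP, where 1 had an unadjusted p under 0.05. Of 23 matrix proteases and inhibitors, 6 rose and 1 fell after fetal oil and 4 rose after fetal DBP. Adamts1 rose by 2.45 and 3.22 and Adamts4 by 2.40 and 2.53, both proteases of proteoglycans, while the protease inhibitors Timp1 and Timp3 rose by 1.74 and 1.51 after fetal oil and by 1.93 and 1.38 after fetal DBP. At GD20, 0 genes of these 6 lists passed the limma threshold, and 1 to 7 genes per list had an unadjusted p under 0.05.

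Markers of cell types moved beside the integrins. Their lists, too, were chosen with earlier results of these data known. The shares of all genes beside them were 6.18% higher and 5.99% lower after fetal oil, and 5.16% and 2.17% after fetal DBP. Of 10 peritubular myoid markers 5 rose after fetal oil and 6 after fetal DBP (medians 0.46 and 0.65), and their summed intensity was 6932 to 7203 in oil-oil, 9465 to 10174 in oil-DBP, 5851 to 7519 in DBP-oil and 9128 to 9844 in DBP-DBP, with no marker at a group mean under 16. Of 9 endothelial markers 1 fell after fetal oil and 1 rose after fetal DBP, and their summed intensity overlapped between oil-oil (1111 to 1234) and oil-DBP (1139 to 1239). Of 10 Sertoli cell markers 3 rose after fetal oil and 0 passed limma's threshold after fetal DBP, where 3 had an unadjusted p under 0.05. Of 8 Leydig cell markers 1 rose and 4 fell after fetal oil, and 0 rose and 2 fell after fetal DBP. S100a8 and S100a9, of 4 measured neutrophil markers, rose in both comparisons. The summed intensity of all 4 markers was 23.6 to 96.5 in oil-oil and 302 to 1856 in oil-DBP. Cxcr2 had a mean under 16 in both groups, and S100a8 had one in oil-oil (2.67, beside 279 in oil-DBP).

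Of 11 macrophage and leukocyte markers 2 rose and 1 fell after fetal oil, and 2 rose after fetal DBP. Their summed intensity was 5173 to 6461 in oil-oil and 5512 to 5934 in oil-DBP. Of 7 leukocyte integrins measured 0 passed in either acute comparison (limma; medians -0.20 and -0.02, with 1 and 0 at an unadjusted p under 0.05). Itgb2, the common beta chain of leukocytes, was at -0.52 (95% interval -1.06 to 0.03) after fetal oil and at 0.02 after fetal DBP. Of 8 spermatid markers 4 fell after fetal oil, while by limma 0 passed after fetal DBP, with 0 at an unadjusted p under 0.05. The part of cell composition in the members' changes was not tested.

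Other probe sets of the same genes gave a further reading. After fetal oil, 7 of the 10 called members had 11 other probe sets, of which 10 had the same sign, 7 passed the limma threshold in that direction and 0 in the other. After fetal DBP, 6 called members had 10 others, of which 10 had the same sign and 7 passed. The second probe set of Itgb1 gave 1.49 and 1.45, and 2 others of Itgav gave 1.86 and 1.32 after fetal oil. Itga6 had 2 further probe sets at 2.23 and 1.64 after fetal oil and a dim one at 0.17. The other probe set of Col4a1 gave 0.18 after fetal oil, not past the threshold, and 0.41 after fetal DBP, past it.

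The variation among animals of the same group was described by pairs of members. Over the 16 PND35 arrays, with group means taken out, Pearson's r was computed for the 820 pairs of 41 members with a mean of at least 100, and its median was 0.10. The highest were Col23a1 with Col26a1 (0.94), Col1a1 with Col1a2, both chains of type I collagen (0.92), Itgae with Itgb1bp1 (0.88), Col1a2 with Lamb1 (0.88) and Col1a2 with Col3a1 (0.88). The 5 nearest to Col4a1 were Lamb3 (0.72), Col6a2 (0.68), Col5a1 (0.62), Lamc1 (0.61) and Col15a1 (0.60), and Col4a2 was not among them. The values of an array share its RNA, scaling and cell make-up, so these figures are descriptions.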

How the data were processed

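Testis RNA of 24 samples in 6 groups of 4 was hybridised to Rat230_2 arrays. The deposited values are linear intensity values, 1 for each of 31099 probe sets, and per the submitters' processing notes GCOS 1.0 was used; the algorithm that summarised each probe set was not given in the sources used here. On the values, every array has the same 2% trimmed mean. The 57 manufacturer's control probe sets were left out of the tests. Probe sets were named by the platform's annotation: 20826 had 1 symbol, 436 several and 9780 none.

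Log2(intensity + 16) was fitted with limma 3.58.1 in R 4.3.3 (lmFit, eBayes with trend, two-sided, Benjamini-Hochberg over 31042 probe sets, threshold 0.05). Arrays were centred on their median where log2 medians spanned over 0.1: the span was 0.08 at GD20 (as deposited), 0.16 at PND35 and 0.71 between the control ages (both centred). The 8 GD20, 16 PND35 and 8 control arrays each had their own fit. As the labels do not name litters, P-values measure the spread between these samples. Called members were named up to 12 in each direction per comparison, with fewer-than-5 comparisons filled by the smallest p. The members, gene lists and tests were chosen with earlier results of these data known. The fit was tested on simulated data with independent noise, in which 200 probe sets were changed by 1 on the log2 scale. These were drawn only from probe sets with a mean above an intensity of 100, so the rates do not cover dim members. The acute and age comparisons called more than 200 probe sets, so the rates need not hold there. The fit recovered 85.5% of the changed probe sets at GD20, 92.0% for acute DBP after fetal oil, 96.0% after fetal DBP and 90.5% between the ages. Of the calls, 7.07%, 2.65%, 6.8% and 5.73% were false. Alternatives covered the pseudocount, centring, quantile normalisation, trend, a filter on dim probe sets, the choice of probe set, extraction, RNA integrity, spike-in level, array weights, adjacent pups as a block and leaving out each array.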

Additional observations from a re-analysis of the deposited data

Results flagged for a closer look

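In 234 sets of 4 arrays, made from 39 named members in 6 groups, 10 had 1 array far from the other 3 by Dixon's ratio, where chance gives about 1 in 20. The array of DBP-DBP pup 124 had a Col17a1 intensity of 56.5, with 11.6 to 12.3 on the others. Col4a4 was lowest for GD20 DBP dam 18, at 39.9 beside 92.6 to 103, and highest for oil-oil pup 114, at 56.3 beside 1.96 to 6.75. Itgam, a leukocyte integrin chain, was highest for GD20 DBP dam 21, at 52.5 beside 7.61 to 9.92, and for oil-oil pup 104, at 16.1 beside 4.53 to 6.31. Itgb1 was highest for GD20 oil dam 5, at 9523 beside 8603 to 8733. Itgb3 was highest for oil-oil pup 120, at 72.2 beside 42.1 to 44.7, and Lamc3 for DBP-oil pup 132, at 263 beside 246 to 248. Itgb5 was lowest for DBP-oil pup 127, at 560.3 beside 661 to 674. Lamc1 was lowest for the pooled array of GD20 oil dam 2, at 2940 beside 3248 to 3279.

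A second probe set of Itgb3bp, not used for the member counts, was lower after acute DBP with fetal oil (log2 fold change -0.39, limma adjusted p = 0.011), while the brighter probe set of the gene was at -0.15 and did not pass.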

How the results depend on the processing

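Counts of members kept within 1.5 times under most settings. The 1 member called at GD20 became 0 with a pseudocount of 64, median centring, 75th percentile centring, no trend, spike-in class as a covariate or without dams 19 and 21 (the last chosen after seeing the data), and 0 to 2 on leaving out single arrays. The 2 lower after acute DBP with fetal oil became 1 as deposited, with 75th percentile centring, quantile normalisation, no trend, without both Trizol arrays or with RNA integrity as a covariate, 4 with the dim filter, and 1 to 6 on leaving out single arrays, while the higher count ran from 6 to 11. After fetal DBP, leaving out pups 132 and 134, or 123 and 127 (both chosen after seeing the data), gave 5 higher and 0 lower. Of the main higher calls, 5 and 4 were kept, respectively. Leaving out single arrays gave 6 to 9 higher and 0 to 1 lower. With age, single arrays gave 11 to 12 higher and 49 to 55 lower. The counts of 0 for fetal DBP and the interaction stayed at 0 in every setting run. Itgb7 turned to -0.039 (adjusted p = 0.907) and Itgal to -0.58 (adjusted p = 0.0207) with age as deposited. Adjacent pup numbers as a block, a pairing that the labels do not state, gave 8 higher and 3 lower after fetal oil, 9 and 1 after fetal DBP and 0 for the interaction. Why a count moved was not tested, and leaving out arrays shows only that the count rests on them. Signal over background is unknown, which limits the 13 members with all group means under 100.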
